A study of Mus musculus with 568 samples.

Results

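The genes described here are 6 factors of the formative epiblast, *Fgf5*, *Otx2*, *Pou3f1*, *Zic2*, *Sox3* and *Sall2*. They were chosen by name, as genes known for the step between naive and primed pluripotency, and not by a threshold on any value. Earlier results of these data were known when the choice was made. All 6 are among the 16335 genes of the bulk RNA-seq table, and 5 of the 6 are among the 15718 genes of the single-cell table, where *Pou3f1* was not analysed.

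The naive pluripotency of mouse embryonic stem cells gives way to a formative state when cells are exposed to FGF and activin signals, and this state is competent for both somatic and germ line fates. Formative cells silence the naive network and express a set of epiblast genes, which germ cells later turn down. *Fgf5* encodes a secreted fibroblast growth factor and is a widely used marker of the post-implantation epiblast. *Otx2* encodes a homeodomain factor that drives the formative programme and restrains entry into the germ line, and *Pou3f1* encodes the POU factor OCT6. *Zic2* and *Sall2* encode zinc finger factors, and *Sox3* is an X-linked gene for a SOXB1 factor related to SOX2.

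The study used XRep, a female mouse ESC line of the hybrid strain 129S1/SvImJ and CAST/EiJ, to follow the X chromosome during germ cell development in culture. All samples of XRep share a truncated *Tsix* on the 129S1/SvImJ X chromosome, doxycycline-inducible BLIMP1, PRDM14 and TFAP2C, and GFP (XGFP) and tdTomato (XTomato) reporters on the 2 X chromosomes. Bulk RNA was sequenced from 16 libraries, 4 each of unsorted ESCs, unsorted epiblast-like cells (EpiLCs, 4 days with bFGF and activin A), and XTomato+ primordial germ cell-like cells (PGCLCs) sorted as SSEA1+ and CD61+, either XGFP+ or XGFP-. PGCLC aggregates had 5 days of doxycycline, which switched on the 3 transgenes, so these cells are a model driven by transgenes. Single cells came from reconstituted ovaries (rOvaries), in which PGCLCs were kept for 6 days with E13.5 gonadal and mesonephric somatic cells of female CD1/ICR mice. XGFP- PGCLCs gave XGFPhigh, XGFPintermediate and XGFPlow cells, and XGFP+ PGCLCs gave XGFP+ constitutive cells. Labels number the libraries 1 to 4 without naming a clone, and the study describes them both as clones with technical replicates and as biological replicates, so the p-values measure the spread between these libraries, which may be partly technical.

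The libraries held between 29.8 M and 46.5 M reads on genes, as recovered from the normalized values. The labels were checked with marker genes. All 10 naive pluripotency genes fell from ESCs to EpiLCs, with *Esrrb*, a naive factor, at 25140 and 1236 normalized counts. Against EpiLCs, 5 of 7 germ cell genes were higher and 1 was lower in XGFP+ PGCLCs, and 4 were higher and 2 lower in XGFP- PGCLCs, where 27.8% and 29.9% of all genes tested were higher. The lower ones were *Sycp3*, a synaptonemal complex gene, in both types and *Ddx4*, an RNA helicase gene of later germ cells, in XGFP- PGCLCs. The higher ones included *Prdm1* in both types. This gene encodes BLIMP1, a transgene that doxycycline switched on, so its rise follows from the design and does not check the labels. *Dazl*, a gene for an RNA-binding protein of germ cells, was at 579 in ESCs, 243 in EpiLCs and 4792 in XGFP+ PGCLCs. In XGFP- PGCLCs it was at 348 and not called against EpiLCs (limma FDR = 0.73), so it does not mark those cells.

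The genes lie on GRCm38 (mm10) as annotated in GENCODE vM21. *Fgf5* (ENSMUSG00000029337) is at chr5:98254184-98277030 on the plus strand. *Otx2* (ENSMUSG00000021848, chr14:48657677-48673819), *Sall2* (ENSMUSG00000049532, chr14:52311172-52328762) and *Sox3* (ENSMUSG00000045179, chrX:60891366-60893430) are on the minus strand. *Zic2* (ENSMUSG00000061524, chr14:122475435-122479852) and *Pou3f1* (ENSMUSG00000090125, chr4:124656807-124660655) are on the plus strand. *Otx2* overlaps the antisense gene Otx2os1 and, on its own strand, Gm49154, and *Pou3f1* overlaps the antisense gene Gm2164. The bulk kit keeps the strand, but the strand setting of the counting is not given in the sources used here, so reads of these 2 genes may include reads of the genes they overlap.

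RefSeq promoter sequences of the same genome were given for 3 of the 6 genes. The 250 bases before 1 start site of each are shown, since each gene rose in EpiLCs and fell in PGCLCs in the data below. In other comparisons the 3 genes differed from each other. Capitals mark matches to 6 short motifs searched on both strands, which did not overlap each other. Of 7 windows listed for these genes, the other 4, of *Otx2* and *Sall2*, overlap annotated exons and are not shown. None of the 3 shown overlaps one. The *Fgf5* window is chr5:98253934-98254183 (plus strand), the *Otx2* window chr14:48667645-48667894 (minus strand) and the *Sall2* window chr14:52316324-52316573 (minus strand), and the last 2 lie inside the longest annotated transcript of their gene, ahead of a later start.
Fgf5: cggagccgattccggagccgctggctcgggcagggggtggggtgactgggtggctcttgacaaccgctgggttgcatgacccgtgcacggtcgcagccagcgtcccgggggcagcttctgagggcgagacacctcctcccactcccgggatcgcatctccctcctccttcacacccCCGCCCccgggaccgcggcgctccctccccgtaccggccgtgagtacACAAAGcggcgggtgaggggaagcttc
Otx2: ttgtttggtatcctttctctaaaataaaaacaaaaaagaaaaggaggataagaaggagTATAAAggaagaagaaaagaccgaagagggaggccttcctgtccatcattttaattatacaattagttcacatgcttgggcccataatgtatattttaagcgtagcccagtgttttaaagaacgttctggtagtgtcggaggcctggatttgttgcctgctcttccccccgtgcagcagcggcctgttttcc
Sall2: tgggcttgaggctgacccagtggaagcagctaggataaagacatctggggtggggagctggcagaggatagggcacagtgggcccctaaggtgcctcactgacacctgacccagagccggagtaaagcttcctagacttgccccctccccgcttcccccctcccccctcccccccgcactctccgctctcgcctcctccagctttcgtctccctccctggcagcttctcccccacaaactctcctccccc
The *Fgf5* window holds a GC box starting 74 bases before the start site and a SOX core 27 bases before it. The *Otx2* window holds a TATA motif 192 bases before the start, and the *Sall2* window shown none of the 6. Among the windows not shown, that of *Sall2* holds a TATA motif and a CCAAT box, 1 of *Otx2* a CCAAT box and 1 an OTX core. The background is 32851 RefSeq windows of this length. The GC box was spelled GGGCGG and stood in 32.7% of them. The SOX core was spelled ACAAAG and stood in 16.5%. The TATA motif was spelled TATAAA and stood in 12.4%. The CCAAT box was found in 33.8%. The OTX core was spelled TAATCC and stood in 6.25%. The octamer was spelled ATGCAAAT and stood in 1.6%. A match is a run of letters and not a binding site. GC content was 70.8% for *Fgf5*, 64.4% for *Sall2* and 42.0% for *Otx2*.

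To ask how the genes changed on leaving the naive state, EpiLCs were compared with ESCs. All 6 genes were higher in EpiLCs, and in each of them every EpiLC library was above every ESC library. The share of all genes tested whose libraries separate in this way is not given here. Of 16281 genes tested, 24.9% were called higher and 22.9% lower (limma-trend on log2(normalized count + 1), two-sided, Benjamini-Hochberg FDR below 0.001). The median log2 fold change was 4.59 over the 6 genes and 0.01 over all genes tested.

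*Fgf5* had the largest increase of the 6. Its normalized counts were 6.74, 13.8, 11.6 and 6.79 in the 4 ESC libraries and 3498, 3081, 3883 and 3741 in the 4 EpiLC libraries. The ligand was thus close to silent in ESCs and 365 times higher by the ratio of means in EpiLCs (log2 fold change 8.43 ± 0.20 SE, FDR = 2e-16). *Pou3f1* was at 38.2, 57.3, 36.8 and 55.4 in ESCs and at 3239, 2263, 3645 and 2688 in EpiLCs. Its mean rose 63.1-fold (log2 fold change 5.95 ± 0.20, FDR = 1.3e-14), and EpiLC libraries 1 and 3 were the highest.

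*Sall2* was at 178, 153, 278 and 209 in ESCs and at 4234, 3211, 4896 and 3515 in EpiLCs, an increase of 19.4-fold (log2 fold change 4.29 ± 0.18, FDR = 4.1e-13). As for *Pou3f1*, EpiLC libraries 1 and 3 were the highest, which also held for *Otx2* and *Sox3*. For *Zic2* they were the lowest, and for *Fgf5* the libraries did not divide in this way. In ESCs libraries 1 and 3 were the lowest for *Otx2*, *Pou3f1* and *Sox3*. The 4 libraries of a group may thus not be independent, and whether the split follows the clones was not tested. *Sox3* was the lowest of the 6 genes in EpiLCs, at 239, 180.0, 232 and 154, against 3.37, 7.91, 4.21 and 9.05 in ESCs. Its log2 fold change was 4.89 ± 0.45 (FDR = 1.7e-08), with the widest error of the 6, and no EpiLC library was below 154.

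*Otx2* and *Zic2* were already present in ESCs, and their increase was the smallest of the 6. *Otx2* was at 558, 804, 647 and 779 in ESCs and at 3844, 3214, 3645 and 3260 in EpiLCs (5.01-fold, log2 fold change 2.33 ± 0.17, FDR = 7.7e-10). *Zic2* was at 404, 380.4, 492 and 638 in ESCs and at 2250, 2286, 2191 and 2389 in EpiLCs (4.76-fold, log2 fold change 2.28 ± 0.20, FDR = 1.1e-08). The EpiLC libraries of *Zic2* differed little from each other, with a mean of 2279 ± 83.2 (SD, n = 4).

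**Figure D1:**
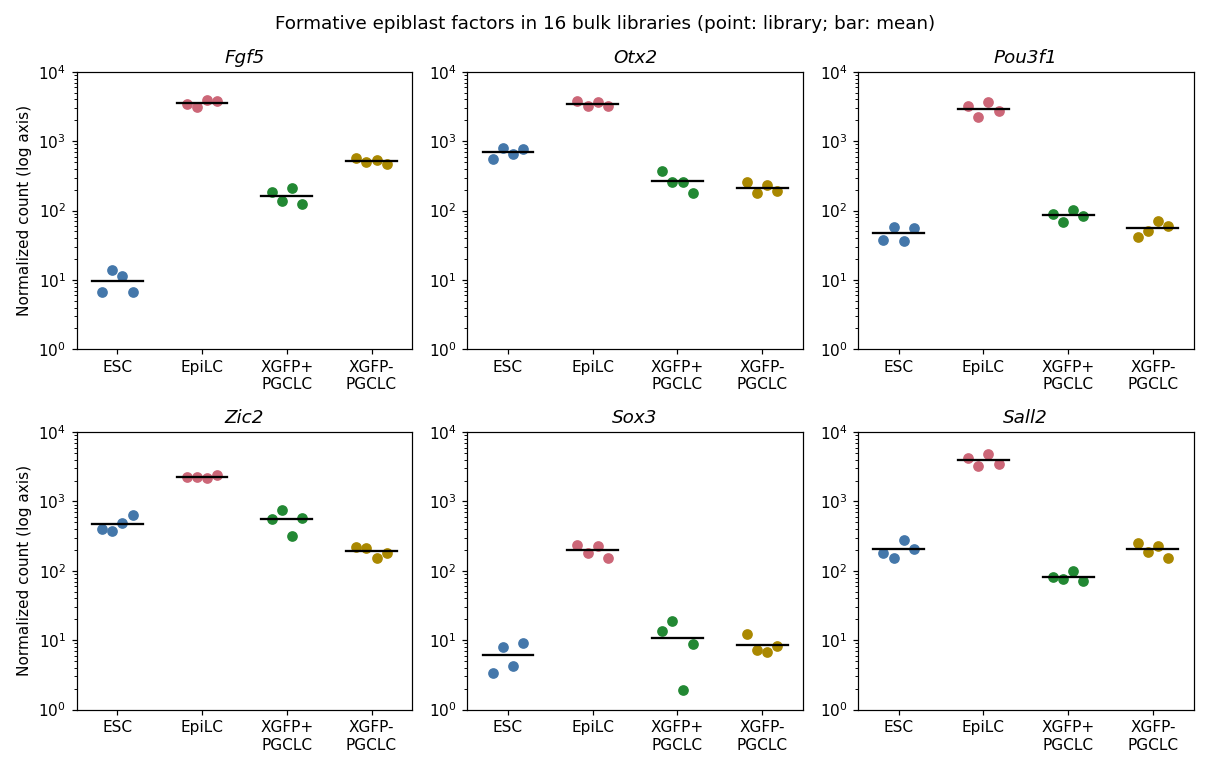
Normalized counts (log axis) of the 6 genes in the 16 bulk libraries, 1 point per library and a bar at the mean of each group of 4. The EpiLC libraries lie above all other libraries for every gene, from 154 for *Sox3* to 4896 for *Sall2*.

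Levels of different genes were compared per kilobase of exon, in normalized counts per kb. The length joined all annotated exons of a gene, and cells may express shorter transcripts, so the order between genes depends on this choice. In EpiLCs *Fgf5* was the most abundant, at 1420 ± 140.3 (SD, n = 4), and its lowest library, at 1232, was above the highest library of any other of the 6. *Otx2* (827 ± 72.2), *Zic2* (791 ± 28.9), *Pou3f1* (769 ± 158) and *Sall2* (730, between 591 and 901) followed and overlapped each other over libraries. *Sox3* was last at 97.4 ± 19.8. In ESCs the order was different, with *Zic2* (166 ± 40.5) and *Otx2* (165 ± 27.4) overlapping at the top, then *Sall2* (37.7 ± 9.90) and *Pou3f1* (12.2 ± 2.85), and *Fgf5* (3.89 ± 1.42) and *Sox3* (2.97 ± 1.34) overlapping at the bottom.

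The other formative genes were counted in a list of 18. In EpiLCs 16 of the 18 were higher than in ESCs, none was lower, and the median log2 fold change was 2.9. The largest changes were those of *Wnt8a*, a WNT ligand of the posterior epiblast (8.19), *Sox11*, a SOXC factor (6.59), and *Lef1*, a nuclear effector of WNT signalling (6.58). The smallest were those of *Etv5*, an ETS factor downstream of FGF (-0.15), and *Foxd3*, a forkhead factor (-0.24), which were not called, and of *Tead2*, a partner of the YAP coactivator (0.68), which was. *Etv5* was at 12940 in ESCs and 11680 in EpiLCs.

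Relatives of the 6 genes did not all follow them. Of the 15 tested, 7 were higher in EpiLCs, 3 lower and 5 not called, where 24.9% of all genes tested were higher and 22.9% lower. *Sox2*, the SOXB1 gene of naive cells, fell by 2.06 on the log2 scale, from 10940 to 2695 normalized counts, while *Sox3* rose. *Fgf4*, the FGF ligand of naive cells, fell by 1.92, whereas *Fgf8* rose by 7.35 and *Fgf15* by 4.18. *Zic5* rose by 1.58. *Pou5f1*, the POU gene of pluripotent cells, did not pass the test (-0.03). *Sall4* did not pass it either (0.44), *Sall1* fell by 0.9, and of the FGF receptors *Fgfr1*, *Fgfr2* and *Fgfr3* rose by 0.67, 1.49 and 1.68.

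Markers of other lineages moved with the same comparison. Of 8 primitive streak and endoderm genes 6 were in the table, 5 of them were higher in EpiLCs, and their summed counts ran from 485 to 666 in ESCs and from 2546 to 5960 in EpiLCs. Of 8 neural genes 5 were present, with sums of 5233 to 7640 in ESCs and 9347 to 16940 in EpiLCs, mostly from *Nes*, at 11580. Of these 5, 1 was called higher, 1 lower and 3 were not called. The neural determinants *Pax6* and *Sox1* were at 26.4 and 28.6 in EpiLCs. Of 10 somatic gonad genes 6 were present, with sums of 444 to 554 in ESCs and 2863 to 5316 in EpiLCs, mostly *Fst* at 3562. Of these 6, 2 were called higher and 3 lower, where 24.9% and 22.9% of all genes tested were higher and lower. Of 4 blood and endothelium genes 2 were present, and they summed to 53.4 to 109.4 in ESCs and 4.94 to 15.8 in EpiLCs. Their part in the values of the 6 genes was not tested, and in bulk RNA fewer cells of a type and less RNA per cell cannot be told apart.

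**Figure D2:**
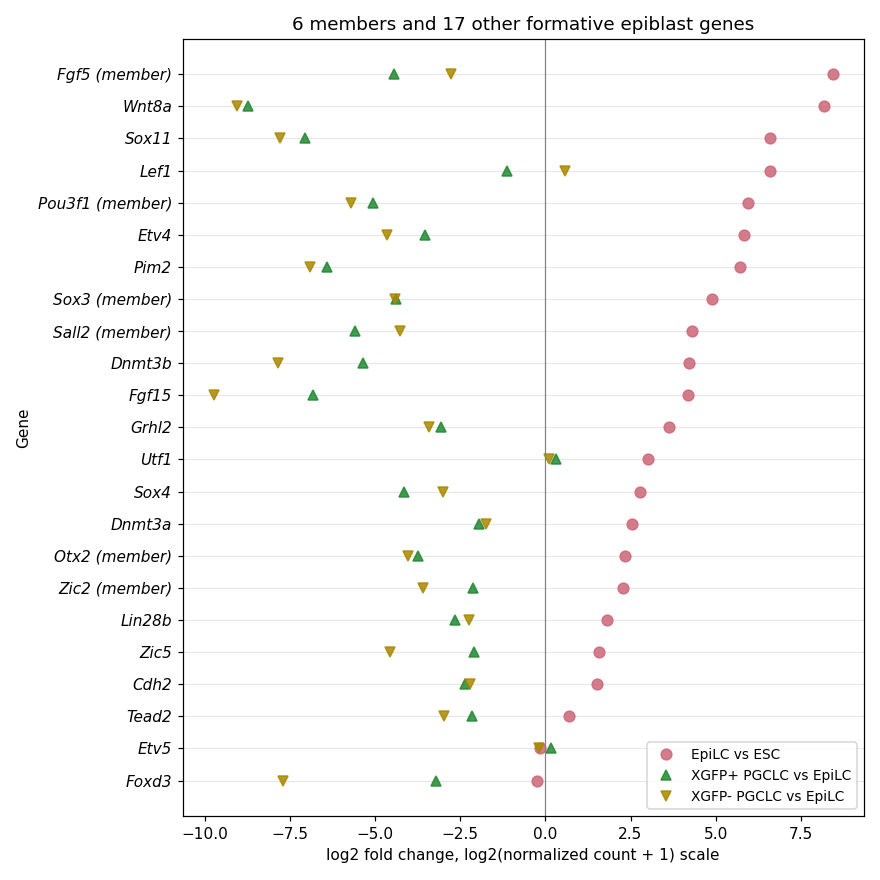
log2 fold changes of the 6 genes (marked member) and 17 of the 18 other formative genes in EpiLCs against ESCs (circles) and in XGFP+ (upward triangles) and XGFP- PGCLCs (downward triangles) against EpiLCs, ordered by the first. *Fgf5* tops the order at 8.43, and *Utf1* stays near 0 in both types of PGCLC (0.30 and 0.11).

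PGCLCs were then compared with the EpiLCs they came from. All 6 genes fell in XGFP+ PGCLCs and all 6 fell in XGFP- PGCLCs, and no PGCLC library reached the lowest EpiLC library. The share of all genes tested with such a separation is again not given. In XGFP+ PGCLCs 27.8% of genes tested were called higher and 29.5% lower, and in XGFP- PGCLCs 29.9% and 31.9%. The median log2 fold change of the 6 was -4.42 in XGFP+ and -4.14 in XGFP- PGCLCs, against 0 and -0.03 over all genes. Both comparisons use the same EpiLC libraries, so their values stand side by side and are not independent.

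In XGFP+ PGCLCs *Sall2* had the largest decrease, to 80.7, 75.1, 98.6 and 70.8 normalized counts in the 4 libraries. That was a log2 fold change of -5.58 ± 0.18 (FDR = 1.2e-14) and a ratio to EpiLCs of 0.0205. *Pou3f1* fell to 90.7, 68.8, 103.4 and 82.4 (-5.07 ± 0.20, FDR = 9.6e-14) and *Fgf5* to 184, 136.4, 214 and 123.6 (-4.45 ± 0.20, FDR = 6.6e-13). *Sox3* fell to 13.6, 18.8, 1.91 and 8.96 (-4.38 ± 0.45, FDR = 6.1e-08), with the libraries far apart on the log scale. *Otx2* fell to 373, 262, 255 and 181 (-3.74 ± 0.17, FDR = 8.8e-13). *Zic2* kept the most, at 554, 756, 319.7 and 582, a ratio to EpiLCs of 0.243 (-2.11 ± 0.20, FDR = 2.4e-08).

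In XGFP- PGCLCs *Pou3f1* had the largest decrease, to 41.6, 50.8, 71.2 and 59.8 (-5.71 ± 0.20, FDR = 1.3e-14). *Sox3* fell to 12.1, 7.11, 6.73 and 8.25 (-4.41 ± 0.45, FDR = 4.4e-08) and *Sall2* to 252, 190.0, 232 and 154 (-4.26 ± 0.18, FDR = 2.6e-13). *Otx2* fell to 256, 178, 233 and 192 (-4.03 ± 0.17, FDR = 2.2e-13), and *Zic2* to 221, 214, 152 and 178 (-3.58 ± 0.20, FDR = 1e-11). Here *Fgf5* kept the most, at 581, 501, 528 and 463, a ratio to EpiLCs of 0.146 (-2.77 ± 0.20, FDR = 3.3e-10).

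Per kilobase of exon, *Zic2* was the most abundant of the 6 in XGFP+ PGCLCs, at 192 ± 62.3 normalized counts per kb (SD, n = 4), and its libraries lay above those of all the others. *Fgf5* (65.8) and *Otx2* (63.4) overlapped behind it, then *Pou3f1* (22.4), *Sall2* (15.0, overlapping with *Pou3f1*) and *Sox3* (5.24). In XGFP- PGCLCs *Fgf5* took the first place, at 207 (from 185 to 232), without overlap with the others. *Zic2* (66.5) and *Otx2* (50.9) overlapped next, then *Sall2* (38.1, overlapping with *Otx2* but not with *Zic2* or *Pou3f1*), *Pou3f1* (14.5) and *Sox3* (4.14).

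Of the 18 other formative genes 15 fell in XGFP+ and 14 in XGFP- PGCLCs, and none rose in either. *Wnt8a* was at 3.38 normalized counts in XGFP+ and 2.49 in XGFP- PGCLCs, from 1773 in EpiLCs. *Lef1* fell by 1.14 in XGFP+ PGCLCs, from 1740 to 779, and was at 2534 in XGFP- PGCLCs, where its change of 0.57 was not called. *Zic5* fell by 2.1 in XGFP+ and fell by 4.56 in XGFP- PGCLCs. *Sox2* rose by 2.02 and 2.13 as *Sox3* fell, and *Sall4* rose by 0.61 and 0.9 as *Sall2* fell. Of the FGF receptors, *Fgfr2* rose by 2.42 and 2.91 and *Fgfr3* by 2.0 and 2.79.

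The markers of other lineages moved here as well. The summed streak and endoderm genes were at 503 to 634 in XGFP+ and 289 to 433 in XGFP- PGCLCs, against 2546 to 5960 in EpiLCs. The somatic gonad genes summed to 103.9 to 146 and 99.1 to 151, and the neural genes to 3020 to 3696 and 3031 to 3358, where *Nes* fell to 940 and 2511. Of the 5 neural genes 3 were higher than in EpiLCs in XGFP+ PGCLCs (*Pax6*, *Hes5* and *Tubb3*) and 2 in XGFP- PGCLCs (*Pax6* and *Hes5*), with *Pax6* at 542 and 305 normalized counts. The blood and endothelium genes summed to 60.1 to 69.9 in XGFP+ and to 149.5 to 234 in XGFP- PGCLCs. Their part in the decreases was not tested, and EpiLCs were not sorted while PGCLCs were, which cannot be told apart from the change of cell type.

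**Figure D3:**
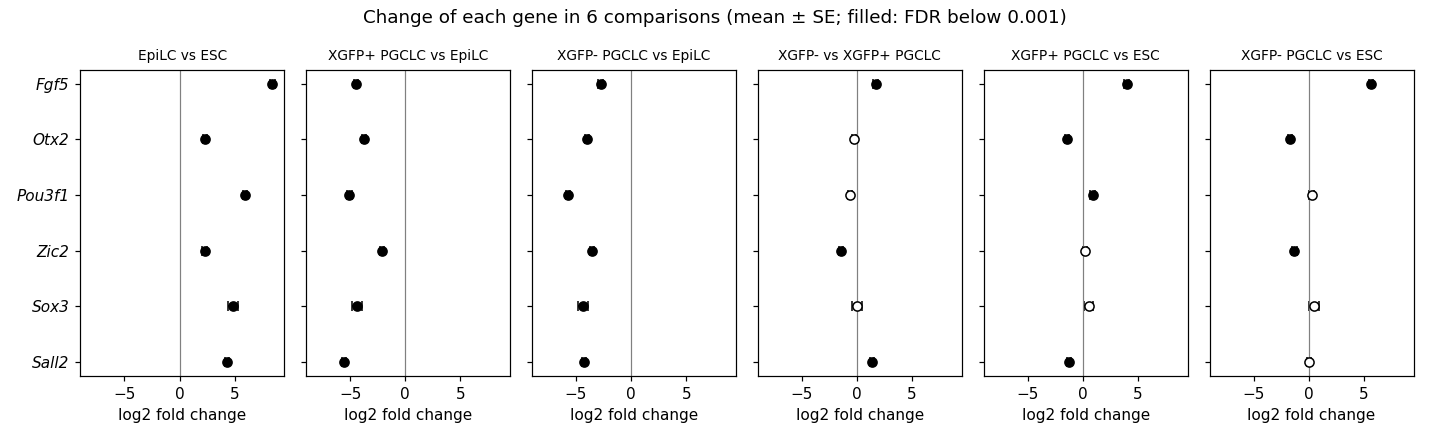
log2 fold changes (mean ± SE, on the log2(normalized count + 1) scale, 4 libraries per group) of the 6 genes in 6 comparisons, with filled points at FDR below 0.001. All points of EpiLC against ESC lie right of 0 and all points of PGCLC against EpiLC left of it, while XGFP- against XGFP+ PGCLC has *Fgf5* and *Sall2* to the right and *Zic2* to the left.

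XGFP- PGCLCs, sorted without the GFP signal of the 129S1/SvImJ X chromosome, were compared directly with XGFP+ PGCLCs. The 6 genes split. *Fgf5* and *Sall2* were higher in XGFP- PGCLCs, *Zic2* was lower, and *Otx2*, *Pou3f1* and *Sox3* did not pass the test. Of all genes tested, 11.3% were called higher and 12.5% lower in XGFP- PGCLCs, and the median log2 fold change was -0.16 over the 6 and 0.01 over all.

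*Fgf5* was 3.15 times higher in XGFP- PGCLCs, 518 ± 49.5 against 165 ± 42.2 normalized counts (SD, n = 4), and the libraries did not overlap (log2 fold change 1.68 ± 0.20, FDR = 1.9e-06). *Sall2* was 2.54 times higher, 207 ± 44 against 81.3 ± 12.2, again without overlap (1.32 ± 0.18, FDR = 1.2e-05). *Zic2* was lower, 191 ± 32.3 against 553 ± 179, a ratio of 0.346, and its lowest XGFP+ library (319.7) was above the highest XGFP- library (221; log2 fold change -1.48 ± 0.20, FDR = 9.6e-06).

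For the other 3 genes the libraries of the 2 types overlapped. *Otx2* was at 215 ± 36.4 in XGFP- and 268 ± 79.1 in XGFP+ PGCLCs (-0.28 ± 0.17, FDR = 0.18). *Pou3f1* was at 55.8 ± 12.6 and 86.3 ± 14.5, with an overlap from 68.8 to 71.2 (-0.63 ± 0.20, FDR = 0.013). *Sox3* was at 8.56 ± 2.47 and 10.8 ± 7.16 (-0.03 ± 0.45, FDR = 0.96). The sign of the *Sox3* value turned under quantile normalization and when single libraries were left out.

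Beside *Zic2*, *Zic5* of the same family was also lower in XGFP- PGCLCs, at 91.3 ± 18.4 against 522 ± 179 (-2.45). *Fgf4* (-3.51) and *Fgf15* (-2.9) were lower where *Fgf5* was higher, and *Fgf15* had a mean of only 0.512 in XGFP- PGCLCs. *Fgf8* was not called (0.43). *Sall1* and *Sall4* were not called (0.31 and 0.29), and neither was *Sox2* (0.11). Of the 18 other formative genes 2 were higher in XGFP- PGCLCs, *Lef1* (1.71) and *Sox4* (1.16), and 6 were lower, among them *Foxd3*, at 2.6 against 69.3 (-4.47).

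The germ cell genes moved in the same comparison, 4 of 7 lower and 1 higher in XGFP- PGCLCs, with sums of 15860 to 18350 against 20670 to 25880 in XGFP+. These sums include *Prdm1*, which is also a transgene, at means of 6959 in XGFP- and 4013 in XGFP+ PGCLCs. Of 10 naive genes 5 were lower, with sums of 33220 to 41660 against 57050 to 64450. The streak and endoderm genes had sums of 289 to 433 against 503 to 634, while the ranges of the neural and somatic gonad sums overlapped. The blood and endothelium genes summed to 149.5 to 234 in XGFP- against 60.1 to 69.9 in XGFP+, and *Cdh5*, an endothelial cadherin gene, was 3.98 times higher (limma FDR = 0.00013). Whether these have a part in the differences of *Fgf5*, *Sall2* and *Zic2* was not tested.

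PGCLCs were also set against ESCs, to see how far the genes returned to their starting level. In XGFP+ PGCLCs *Fgf5* (log2 fold change 3.97, FDR = 5e-12) and *Pou3f1* (0.88, FDR = 0.00061) were still higher than in ESCs, *Otx2* (-1.41, FDR = 7.4e-07) and *Sall2* (-1.30, FDR = 4.9e-06) were lower, and *Zic2* (0.17) and *Sox3* (0.51) were not called. Of all genes 25% were called higher and 24.9% lower. In XGFP- PGCLCs *Fgf5* was higher (5.65, FDR = 1.7e-14), *Otx2* (-1.69, FDR = 4.3e-08) and *Zic2* (-1.30, FDR = 1.1e-05) were lower, and *Pou3f1* (0.25), *Sox3* (0.48) and *Sall2* (0.03) were not called, with 29.8% of genes higher and 29.6% lower.

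*Fgf5* had the highest ratio to its ESC mean of the 6 genes, 16.9 in XGFP+ and 53.2 in XGFP- PGCLCs, from an ESC mean of 9.73 normalized counts. *Otx2* was below its ESC mean in both, at ratios of 0.384 and 0.308. *Sall2* in XGFP- PGCLCs was at 207, next to 205 in ESCs, and its libraries overlapped with those of ESCs. The call of *Pou3f1* in XGFP+ PGCLCs was the least stable and was lost in 9 of 18 alternatives, among them the comparison of the 2 groups alone (FDR = 0.0026), edgeR (FDR = 0.0011) and leaving out XGFP+ libraries 1, 3 or 4 or ESC libraries 1 or 3 (FDR up to 0.003). These comparisons share the ESC libraries.

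Over the 16 libraries the 6 genes correlated with each other to different degrees (Pearson's r of log2 values). The highest was 0.94 between *Pou3f1* and *Sox3* and the lowest 0.41 between *Fgf5* and *Otx2*. For each gene the 3 genes with the most similar pattern were taken from 11702 genes with a mean above 100. *Fgf5* was nearest to *Pcbp4* (r = 0.993), *Setd7* (0.992) and *Gpsm1* (0.992), and *Otx2* to *Nle1* (0.992), *Snrpb* (0.992) and *Hmga1b* (0.991). *Pou3f1* was nearest to *Tiparp* (0.992), *Rap2b* (0.991) and *Has2* (0.988). For *Zic2* these were *Fam102b* (0.977), *Fitm2* (0.975) and *Myrf* (0.973), for *Sox3* *Neb* (0.967), *Grhl2* (0.966) and *Zfp423* (0.966), and for *Sall2* *Klhl23* (0.990), *Zmynd8* (0.990) and *Timp3* (0.988). These are descriptions over 16 points that fall into 4 groups, and each gene shares all libraries with its neighbours.

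*Sox3* is the X-linked member, and the share of its allelic reads from the 129S1/SvImJ X chromosome was given per library. The share was listed at 0 in 14 of 16 libraries and was above 0 in 2 EpiLC libraries, at 0.105 and 0.0213. Libraries without any allelic read are also listed at 0, and no read numbers come with the shares, so the depth behind them is unknown. EpiLCs had a mean of 0.0316 and the other groups 0 (exact two-sided permutation test, p = 0.429, n = 4 per group, adjusted p = 0.857 over 6 pairs of groups). With only 2 shares above 0, both in EpiLCs, no smaller p was possible, so the test cannot decide whether the groups differ. Between the other groups there was no difference to test (exact p = 1.0).

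Residual expression was then followed into single rOvary cells, sorted by XGFP. Of 518 wells, 462 passed the limits of 4000 genes, 10000 reads and no more than 5% of reads from mitochondria. They were 88 XGFP+ constitutive and 125 XGFPhigh cells, 88.9% of the XGFPintermediate wells (16 left out) and 89% of the XGFPlow wells (15 left out), with median depths of 354100, 636600, 645500 and 640900 reads, and 24 single ESCs had 1104000. Each sorted population is 1 sample, so no test was made, and intervals cover counting error only, since amplified reads without molecular identifiers are not independent molecules. In 10 empty wells no read of the 5 genes was found, and the most reads on genes in any of them were 242.

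In the rOvary the 5 genes were rare, with the exception of *Sox3* in cells with an active XGFP reporter. At least 1 of the 5 was read in 53 of 88 XGFP+ constitutive cells (60.2%, exact 95% interval 49.2 to 70.5), 91 of 125 XGFPhigh (72.8%, 64.1 to 80.4), 28 XGFPintermediate (21.9%, 15.1 to 30) and 52 XGFPlow cells (43%, 34 to 52.3). Summed over cells they made up 12.9, 17.7, 3.17 and 13.2 RPM, reads per 1000000 reads on genes. Of the 91 XGFPhigh cells with any of them, 48 had 1, 33 had 2, 9 had 3 and 1 had 4 of the 5, and none of the XGFPintermediate cells had more than 1.

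*Sox3*, low in PGCLC bulk RNA, was the member read in the most rOvary cells. It was found in 46 XGFP+ constitutive cells (52.3%, 41.4 to 63), 79 XGFPhigh (63.2%, 54.1 to 71.6), 18 XGFPintermediate (14.1%, 8.55 to 21.3) and 31 XGFPlow cells (25.6%, 18.1 to 34.4). Its level was 4.83 RPM in XGFP+ constitutive, 8.35 in XGFPhigh, 1.53 in XGFPintermediate and 2.86 in XGFPlow cells. The cell with the most *Sox3* reads held 7.89% of them in XGFP+ constitutive, 6.09% in XGFPhigh, 24.8% in XGFPintermediate and 11.4% in XGFPlow cells. In cells with a read the median was 5 reads in XGFPhigh and 2 in XGFP+ constitutive cells. Single ESCs gave 5 reads in 2 of 24 cells (0.192 RPM), although they were sequenced more deeply, on another flow cell.

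*Otx2*, the factor that restrains germ line entry, was read in 13 XGFP+ constitutive cells (14.8%, 8.11 to 23.9) and 21 XGFPhigh cells (16.8%, 10.7 to 24.5), at 4.87 and 4.90 RPM. It was not read in any XGFPintermediate cell, which allows a share of cells with a read of up to 2.34% by a limit of 3 counts and of up to 2.84% by the exact 95% interval, and sets no limit on cells that express the gene below detection. It was read in 3 XGFPlow cells (2.48%). Cells with any *Otx2* read had a median of 17 reads in XGFPhigh and 12 in XGFP+ constitutive cells. *Dazl* was above 1 on the natural-log normalized scale in all 13 of the XGFP+ constitutive, 19 of the 21 XGFPhigh and 1 of the 3 XGFPlow cells with an *Otx2* read, against 86.4%, 94.4% and 75.2% of all cells of these populations. In single ESCs *Otx2* was in 11 of 24 cells at 12.4 RPM. Whether the single-cell counts use the strand is not given in the sources used here, so reads of Otx2os1 may be among these.

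*Sall2* was read in 12, 28, 8 and 18 cells of the 4 populations in the same order (13.6%, 22.4%, 6.25% and 14.9%). XGFPlow cells had the highest level, 7.90 RPM against 2.54, 3.08 and 1.60, but 26.4% of its reads were in 1 cell and the level without that cell was 5.89. Among XGFPlow cells with *Dazl* above 1 it was 2.57. *Zic2* was at 0.159, 0.387, 0.0473 and 0.300 RPM, in 2, 13, 2 and 7 cells, and without the cell with the most reads at 0.0643, 0.317, 0.0119 and 0.0886. *Fgf5* was read in 3 XGFP+ constitutive, 4 XGFPhigh and 3 XGFPlow cells and in no XGFPintermediate cell, where the exact 95% interval of cells with a read again reaches 2.84%. Of the 80 *Fgf5* reads in XGFPhigh cells 50 were in 1 cell, and without it the level was 0.365 in place of 0.968 RPM.

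**Figure D4:**
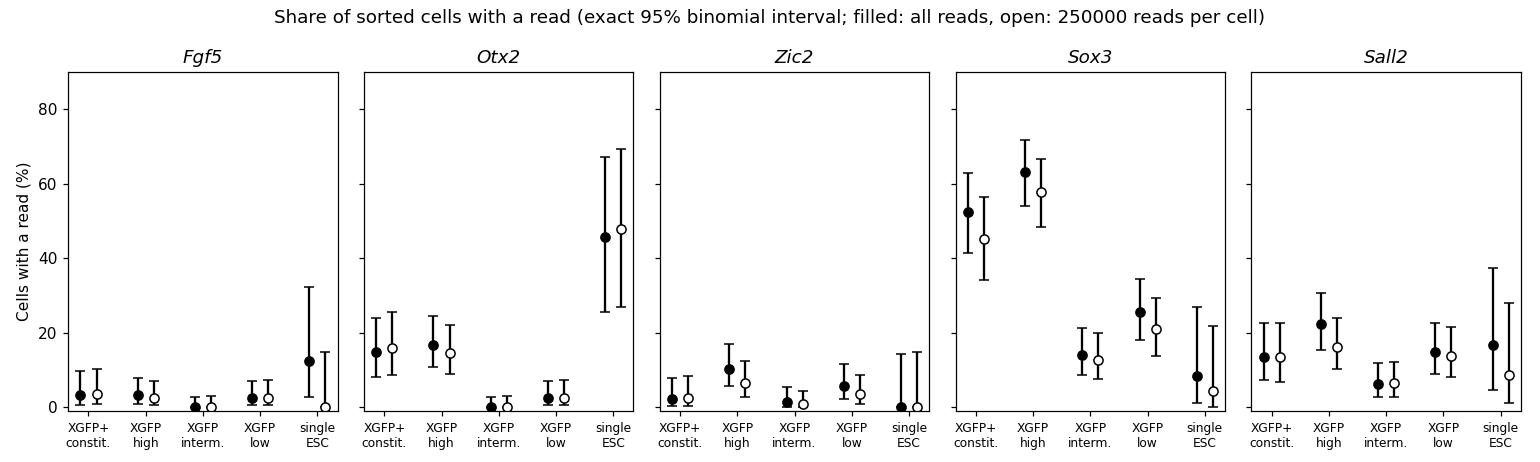
Share of kept cells with at least 1 read of 5 genes in 4 rOvary populations and single ESCs, with exact 95% binomial intervals, for all reads (filled) and for cells thinned to 250000 reads (open). *Sox3* was in 63.2% of XGFPhigh and 14.1% of XGFPintermediate cells, and *Otx2* in 16.8% and none.

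Depth differed between populations, so each cell was thinned to 250000 reads, which left out 6 XGFP+ constitutive, 2 XGFPhigh, 3 XGFPintermediate and 6 XGFPlow cells. *Sox3* was then read in 45.1%, 57.7%, 12.8% and 20.9% of cells, and *Otx2* in 15.9%, 14.6%, none and 2.61%. Lanes also differed, since XGFP+ constitutive cells were all in lane 2, with few cells of the other populations. In lane 2, 5 of 14 XGFPhigh cells had a *Sox3* read (35.7%) and 1 of 14 an *Otx2* read, and the 5 genes summed to 3.66 RPM, against 20.1 in lane 3. XGFPlow cells were at 5.91 in lane 2 and 14.3 in lane 3, and XGFPintermediate cells at 0.522 and 3.67. Within lane 2 the order by RPM was XGFP+ constitutive (12.9), XGFPlow, XGFPhigh and XGFPintermediate, so XGFPhigh was below XGFP+ constitutive and XGFPlow there, unlike in the pooled values. The XGFPlow value came from 61 reads in 4 of 15 cells, 47.5% of them in 1 cell. Without the top cell of each it was 3.45 in XGFPlow and 2.69 in XGFPhigh. By share of cells with a read, XGFPhigh (50%) was above XGFPlow (26.7%) in lane 2. In lane 3 XGFPhigh was above XGFPlow and XGFPlow above XGFPintermediate, as in the pooled values. XGFPintermediate was the lowest in both lanes.

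Cells of other types were present in some populations. With *Dazl* above 1, a level of germ cells, 76 XGFP+ constitutive and 91 XGFPlow cells were left, with 94.4% of the XGFPhigh and 90.6% of the XGFPintermediate cells, and the 5 genes summed to 14.1, 17.5, 2.55 and 5.42 RPM. XGFPlow was the population where the value differed most, and 334 of its 1057 reads were in cells with *Dazl* above 1. The neural genes (6 of 8 in the table) summed to 53.4, 53.5, 45.5 and 349 RPM, and *Fabp7*, a gene of neural progenitors, was read in 0, 2, 2 and 3 cells. The 3 XGFPlow cells with *Fabp7* held 20 of 24 *Zic2* reads, 167 of 632 *Sall2* reads and 22 of 229 *Sox3* reads, and none of the *Otx2* or *Fgf5* reads.

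The somatic gonad genes (10 of 10 in the table) summed to 14.6, 11.3, 404 and 89.6 RPM. Of the 10 genes 7, 9, 9 and 9 had a read, so they did not go 1 way. *Amhr2* of this list was in 26.1%, 22.4%, 17.2% and 10.7% of cells, and in 70.8% of single ESCs. The collagen gene *Col3a1* of the same list was in no XGFP+ constitutive or XGFPhigh cell, 6 XGFPintermediate and 4 XGFPlow cells. Those cells held 30 and 10 *Sall2* reads, 22.2% and 1.58% of the reads of that gene in their population, and no read of the other 4 genes. The blood and endothelium genes (3 of 4 in the table) summed to 0.541, 0.351, 37.2 and 0.300, and the streak and endoderm genes to 19.8, 26.5, 15.5 and 11.6. How far such cells make up the remaining reads of *Sall2* and *Zic2* was not tested.

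Of the other formative genes, all 18 were in the table, and many were common in rOvary cells. *Utf1*, a chromatin factor of pluripotent and germ cells, was read in 80.7%, 86.4%, 68% and 76% of cells in the same order. *Wnt8a* was in 29.5% of XGFP+ constitutive and 27.2% of XGFPhigh cells but in 7.03% of XGFPintermediate and 3.31% of XGFPlow cells. *Lef1* went the other way, at 19.3%, 36%, 68% and 59.5%, and *Sox11* was rare, at 1.14%, 0.8%, 3.12% and 8.26%. Among relatives, *Sox2* was in 87.5%, 89.6%, 52.3% and 58.7% of cells, in the same order of populations as *Sox3* but in more cells. *Zic1* and *Zic4*, which were read in 8.26% and 9.09% of XGFPlow cells, were not read in XGFP+ constitutive cells.

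**Figure D5:**
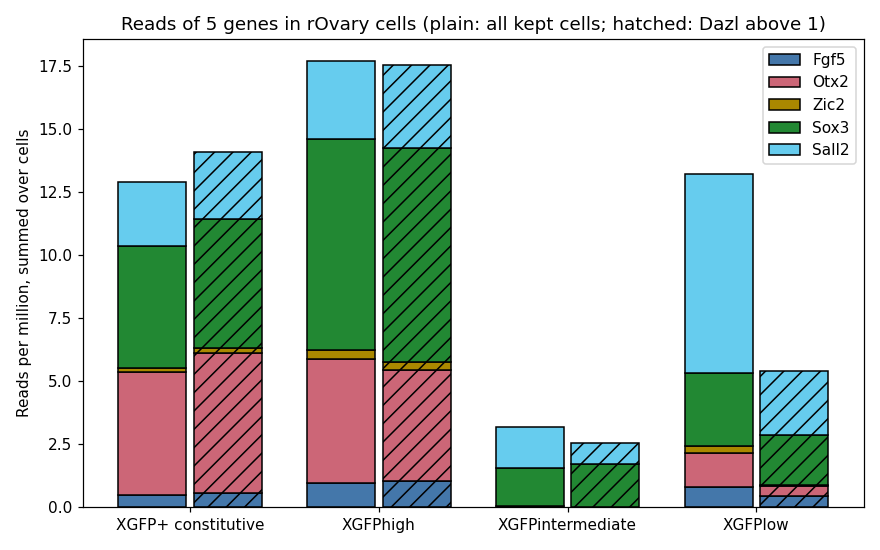
RPM of 5 genes, summed over the cells of each rOvary population and stacked by gene, for all kept cells (plain) and for cells with *Dazl* above 1 (hatched). The XGFPlow stack drops from 13.2 to 5.42, the XGFPintermediate stack from 3.17 to 2.55, and the others go from 12.9 to 14.1 and from 17.7 to 17.5.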

How the data were processed

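The authors deposited bulk expression as normalized signal: reads of stranded total RNA were aligned with STAR to mm10, counted with HTSeq 0.6.1 and divided by DESeq2 1.16 size factors, per the submitters' processing notes. Dividing by the step between low values gave back whole reads (100% of values within 0.01 of a whole read in all 16 libraries). For single cells the authors deposited raw counts of reads without molecular identifiers, and allelic values are a fraction made by the authors, 129S1/SvImJ reads over all allelic reads. 4 columns of another study and the per-cell allelic values, which hold none of the genes, were not used here.

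All 16 bulk libraries were fitted in 1 model with limma 3.58.1 (limma-trend, log2 of normalized count plus a pseudocount of 1, mean count above 10, 16281 genes, two-sided, Benjamini-Hochberg FDR below 0.001). Log2 fold changes on this scale understate those of low genes. Alternatives were pseudocounts of 0.5 and 10, other filters, the compared groups alone, quantile normalization, edgeR 4.0.16 and DESeq2 1.42.0 on recovered reads, an absolute log2 fold change above 1, leaving out each library and the replicate number as a block. Cells were kept by the study's limits on genes, reads and mitochondrial reads, without its further *Dazl* and allelic filters, and reads of a population were summed. Doublets were not called, since each well received 1 sorted cell. Alternatives for cells were no filter, *Dazl* above 1, 250000 reads per cell, and lanes apart. Poisson and Clopper-Pearson intervals have a level of 95%. Symbols were matched to Ensembl IDs, of which 238 of 16335 had none.

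The members and lists were chosen with earlier results of these data known. Named are the 6 genes, from a list of 18 other formative genes the 3 largest and 3 smallest changes in EpiLCs, relatives, the 3 genes nearest in pattern, and marker genes. *Foxd3*, *Sox4*, *Lef1* and *Utf1* in PGCLC or rOvary comparisons, and *Zic1*, *Zic4*, *Cdh5* and *Amhr2*, were named after their values were seen. Replicate numbers of XGFP+ and XGFP- PGCLC libraries pair them by the data (deviations of same-numbered libraries correlate with r of 0.135 to 0.307 across genes). Between ESCs and EpiLCs r was 0.0409 to 0.11, and between ESCs and XGFP- PGCLCs 0.0327 to 0.102. In the remaining pairs of groups r ranged from below 0 upward. It was -0.0105 to 0.16 for EpiLCs with XGFP+ PGCLCs and -0.00212 to 0.0836 for EpiLCs with XGFP- PGCLCs. For ESCs with XGFP+ PGCLCs it was -0.00555 to 0.0627. 1 gene of the list of 18 is counted but not reported here.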

Additional observations from a re-analysis of the deposited data

Results flagged for a closer look

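Between XGFP- and XGFP+ PGCLCs the change from EpiLCs differed for 3 of the 6 genes, tested as the direct contrast of the PGCLC types in which the shared EpiLC libraries cancel (limma-trend). The difference was 1.68 on the log2 scale for *Fgf5*, 1.32 for *Sall2* and -1.48 for *Zic2*, each with 4 of 4 libraries beyond those of the other type. The share of all genes tested that separate in this way is not given. No library stood apart from the other 3 of its group by Dixon's test in any of 24 groups of 4 values.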

How the results depend on the processing

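The number of members called was unchanged in each comparison apart from the loss of *Pou3f1* described above and of *Sox3*, which a mean above 100 leaves untested. No fold change of a called member turned its sign. Uncalled values turned in 2 cases: quantile normalization gave 0.34 for *Sox3* in XGFP- against XGFP+ PGCLCs (-0.61 to 0.31 without 1 library) and -0.01 for *Sall2* in XGFP- PGCLCs against ESCs (-0.10 to 0.18). Requiring an absolute log2 fold change above 1 left 2381 genes higher and 1820 lower in EpiLCs against ESCs, against EpiLCs 2361 and 2586 for XGFP+ PGCLCs and 2618 and 3067 for XGFP- PGCLCs, in XGFP- against XGFP+ PGCLCs 662 and 1159, and against ESCs 2163 and 1867 for XGFP+ PGCLCs and 2730 and 2731 for XGFP- PGCLCs, since it removes small changes. The replicate block kept 6, 6, 6, 3, 4 and 3 members called and changed no member's call. Summed RPM of the 5 genes in cells moved beyond counting error to 3.66 (lane 2), 20.1 (lane 3) and 19.2 (thinned) in XGFPhigh, to 0.522, 3.67 and 2.55 (lane 2, lane 3, *Dazl* above 1) in XGFPintermediate, to 5.91, 14.3 and 5.42 in XGFPlow, and to 16.9 in thinned single ESCs. For the *Sox3* allelic share, no library left out changed the outcome, nor could it with only 2 shares above 0. Leaving out shares of 0 left no second group to compare. Depth limits *Sox3* in bulk and *Fgf5* and *Zic2* in cells.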
